A study of Mus musculus with 2 samples.

Results

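Wnt5a, its receptors and the membrane genes of planar cell polarity were examined in a map of m6A (N6-methyladenosine), the commonest internal modification of mRNA, in the mouse uterus. The 8 genes are Wnt5a, Ror1, Ror2, Ryk, Vangl1, Vangl2, Prickle1 and Prickle2. Their peaks were taken as those whose summit, the base of highest signal, lay within the RefSeq span of the gene on the build mm10 (GRCm38). This gave 27 of the 26584 peaks. They fell in 7 of the 8 genes (87.5%), against 44.9% of all 21900 protein-coding genes counted the same way. When peaks below a −log10 q of 5 were left out, the 7 genes kept at least 1 peak each, against 41.3% of protein-coding genes. Ryk had no peak. Genes whose spans are like those of the 8 had a peak more often than the 44.9% of all genes. Among protein-coding genes with a span within 1.5 times that of the member, the share with a peak was 48.4% for Wnt5a, 49.6% for Vangl2, 56.4% for Vangl1 and 60.9% for Ryk. It was 65.5% for Prickle1, 69.3% for Ror1, 69.4% for Prickle2 and 71.9% for Ror2. The rule for the members uses no measured value, but the genes were proposed with earlier results of these data known.

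The tissue was uterus of wild-type females aged 6 to 8 weeks, mated with fertile males and taken on gestational day 4, with the plug counted as day 1. Of the 2 samples, 1 was polyA RNA enriched with an anti-m6A antibody (immunoprecipitate, IP) and 1 was input RNA with no antibody. The labels give the cells as mixed, so fewer cells of a type and less RNA per cell cannot be told apart, and they do not say how many animals were pooled. Only the peak list deposited with the IP sample was analysed. There is no replicate, no second condition and no value of the input sample on its own, so each difference below describes 1 list and has no test across animals.

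Wnt5a is a secreted ligand that mostly acts without stabilising β-catenin. It binds the receptor tyrosine kinase-like proteins Ror1 and Ror2 and the Wnt-binding protein Ryk, and signals to the cytoskeleton through Dishevelled and small GTPases. Planar cell polarity is the alignment of cells within the plane of a tissue. It is set by membrane complexes in which Vangl and Prickle proteins gather on one side of a cell, opposite to Frizzled and Dishevelled. In the mouse uterus, Wnt5a-Ror signalling and Vangl2 are known for directing the epithelial crypts in which blastocysts implant.

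Each peak carries the fold enrichment of IP signal over background that the authors' peak caller gave it, as the ratio of the IP pileup plus 1 to the background plus 1 at the summit. The pileup (fragments over the summit) and the background on the same scale were solved from that ratio and the deposited p-value. The 27 peaks had a median fold enrichment of 8.30 and a range of 4.08 to 19.9, beside 7.14 for all peaks. They rested on a median of 20 fragments (range 7 to 93), beside 18 for all peaks, over backgrounds of 0.188 to 4.27. Intervals below are 95% exact Poisson intervals of the pileup with the background taken as known. They cover counting error only.

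Facts of the whole list bear on every value. The file names every peak after a run called D8NegIP-Posinput. If D8 stands for a day, it does not match the labelled gestational day 4. What the parts of this name stand for is not given, so whether the labelled input served as background is unsettled. Markers of the labelled tissue were among the genes with a peak, which made up 44.9% of protein-coding genes. Peaks lay in 7 of 7 genes of uterine stroma and its regulators, 5 of 6 epithelial, 5 of 5 smooth muscle and 4 of 4 endothelial genes. They lay in 1 of 5 genes of the preimplantation embryo, Eomes at a fold enrichment of 7.26. Of red blood cell genes, 1 of 4 had a peak, Alas2 at 7.88, at a site that also lies in the span of Apex2. The strongest peak of the stroma gene Hoxa11 likewise also lay in another span, that of LOC115490410. No peak lay in Pou5f1, Nanog, Cdx2 or the haemoglobin genes Hba-a1 and Hbb-bs.

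No genome sequence was used here, so the bases under the peaks are not shown. RefSeq's table of promoters (GRCm38.p6) held 6 of the 8 genes and none for Wnt5a and Vangl1. It gives the annotated transcript starts that fix which end of a span is the 5′ end. The starts of Ror1, Ror2 and Prickle1 are shown because the first peak of Ror1 and of Prickle1 lies just past a start and that of Ror2 does not. The table holds 2 starts for Prickle1, whose span reaches further 5′ than both, to 93596266. The start not shown, at 93519520 within the gene, had its next summit 16317 bp downstream. Each line runs 5′ to 3′ and ends at the annotated first base of the transcript, which is the capital.
Ror1, chr4:100095762-100095791, plus strand: gaccccggcctgggcccgcctctgccattG
Ror2, chr13:53286124-53286153, minus strand: gggaccctgcctcctgcgcgcccgcccgcG
Prickle1, chr15:93595902-93595931, minus strand: gctctgcagcggccgggactggagcgcgcA

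The ligand gene Wnt5a carried 6 peaks along a short span of 22906 bp (chromosome 14, 28504543 to 28527448). Peaks covered 11.4% of the span, the highest share among the 8 genes. Of 4889 protein-coding genes with a span within 1.5 times that of Wnt5a, 1.90% had 6 or more peaks and 48.4% had at least 1. None of the 6 summits lay in another gene's span, and the next summit outside Wnt5a was 80648 bp away.

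The strongest Wnt5a peak lay towards the high-coordinate end of the span, at 28522297 to 28523030, with its summit 4678 bp from that end. Its fold enrichment was 17.3 (13.4 to 22.1), from 63 fragments over a background of 2.69. This was above 95.3% of all peaks in the list. A peak at 28510584 to 28511077 had 13.2 (9.30 to 18.2) from 35 fragments. The peak nearest the low-coordinate end, at 28504824 to 28505199 with its summit 458 bp inside the span, had 11.2 (7.93 to 15.4) from 36 fragments. The intervals of these 3 peaks overlapped.

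The other Wnt5a peaks were lower. They had 8.50 (5.89 to 11.9) at 28518099 to 28518502, 7.25 (4.33 to 11.5) at 28506217 to 28506593 and 6.84 (4.26 to 10.5) at 28513036 to 28513259. None of their intervals reached that of the strongest peak. Neighbouring summits were 1426 to 5263 bp apart, so the signal was spread along the gene and not gathered at 1 end. Backgrounds stayed between 1.35 and 2.88 at all 6, and the ratio of pileup to background without the added 1 kept the same peak highest, at 23.4.

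**Figure D1:**
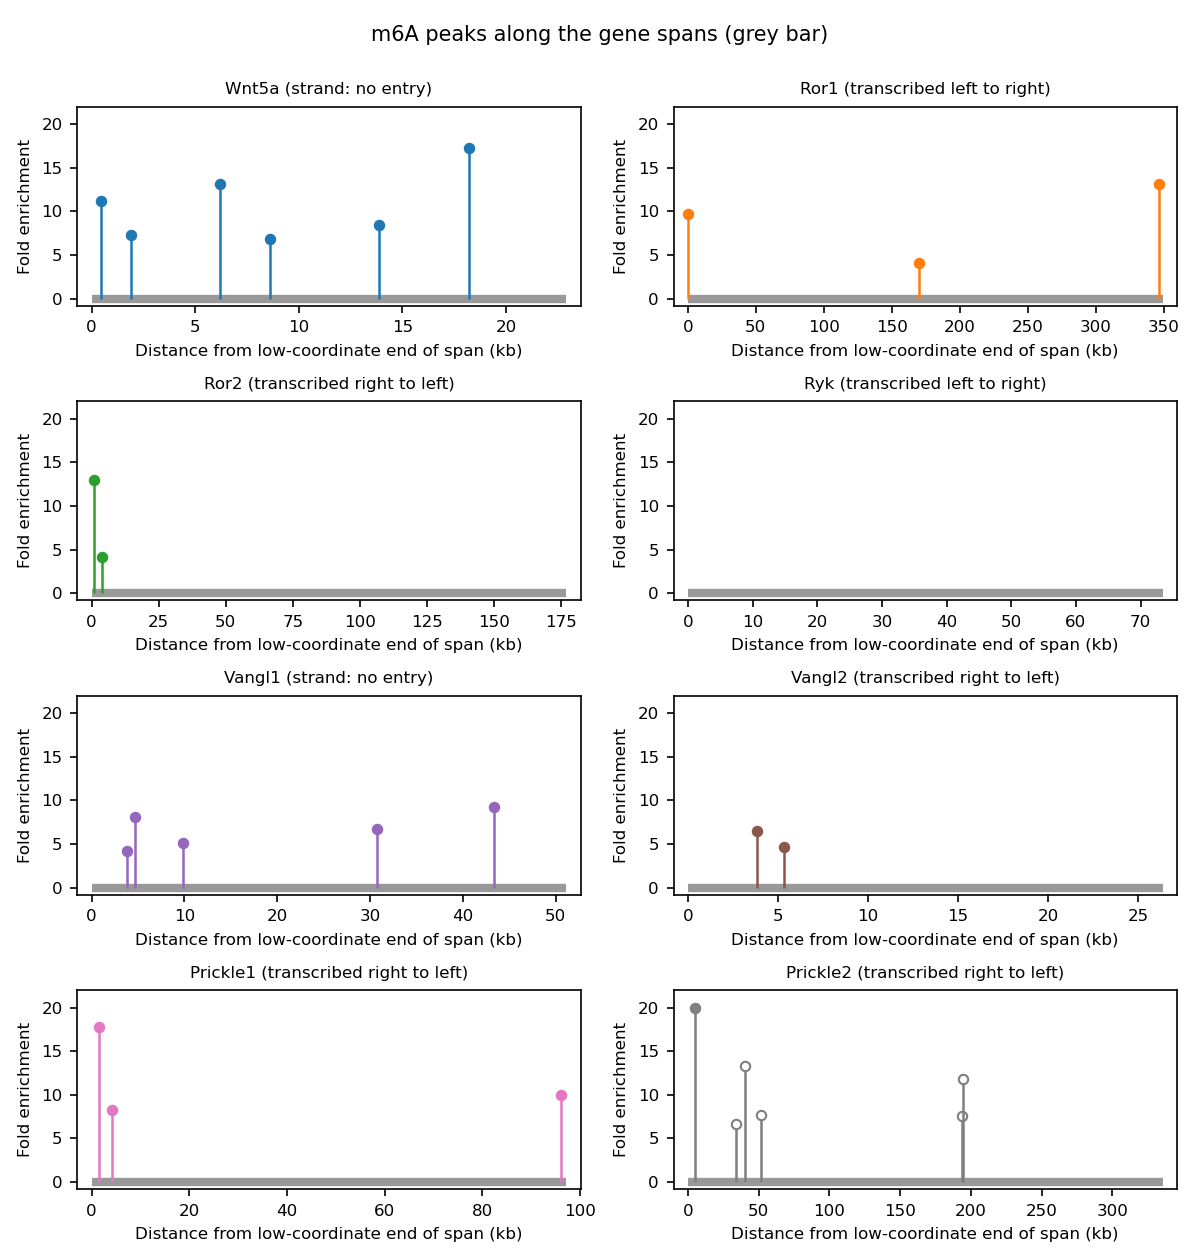
Fold enrichment (vertical axis) of each m6A peak against the distance of its summit from the low-coordinate end of the gene span in kb (horizontal axis), with 1 panel per gene, the span as a grey bar and open circles for summits that also lie in another gene's span. Wnt5a has 6 peaks spread along 22906 bp, Ryk has none, and the highest peaks of Ror1, Ror2, Prickle1 and Prickle2 stand close to the 3′ end of the span.

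Both Ror receptor genes had a very wide peak of like enrichment at the 3′ end of a long span. In Ror1 (chromosome 4, 100095791 to 100444806, plus strand) the peak at 100440770 to 100443034 was 2265 bp wide and its summit lay 2480 bp from the 3′ end. In Ror2 (chromosome 13, 53109317 to 53286124, minus strand) the peak at 53109436 to 53111861 was 2426 bp wide and its summit lay 1052 bp from the 3′ end. Of all peaks in the list, 1.12% were wider than the Ror1 peak and 0.888% wider than the Ror2 peak.

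The fold enrichment of these peaks was 13.2 (9.06 to 18.7) in Ror1, from 30 fragments over a background of 1.35, and 13.0 (9.34 to 17.7) in Ror2, from 39 over 2.08. The ratio of Ror1 to Ror2 was 1.02, and the intervals overlapped almost fully. This depth does not separate the receptor genes at their strongest site.

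The listed peaks of the Ror genes differed at the 5′ end. Ror1 had a peak at 100095849 to 100096206 that began 58 bp past the annotated start shown above, with a fold enrichment of 9.75 (6.14 to 14.8) from 20 fragments. Ror2 had no summit within 172978 bp downstream of its start. The list holds no depth where no peak was called, so low signal there and a lack of the mark cannot be told apart. Each gene also had 1 weak peak. That of Ror1, 169729 bp into the gene at 100265514 to 100265993, had 4.08 (1.94 to 7.86) from 7 fragments. That of Ror2, at 53113077 to 53113280 beside its 3′-end peak, had 4.18 (2.07 to 7.78) from 8. Of all peaks, 5.07% and 5.83% were lower than these, and neither passed −log10 q of 5. Among protein-coding genes of like span, 39.6% had at least the 3 peaks of Ror1 and 52.4% at least the 2 of Ror2.

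Ryk, which encodes a Wnt receptor with an inactive kinase domain, had no peak in its span on chromosome 9 (102834920 to 102908307). The nearest summit on the chromosome was 96526 bp away, far outside the annotated span. Of 2908 protein-coding genes with a span within 1.5 times that of Ryk, 60.9% had a peak. The list holds nothing on how deeply Ryk was sequenced, so a low level of Ryk RNA and a lack of the mark cannot be told apart.

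**Figure D2:**
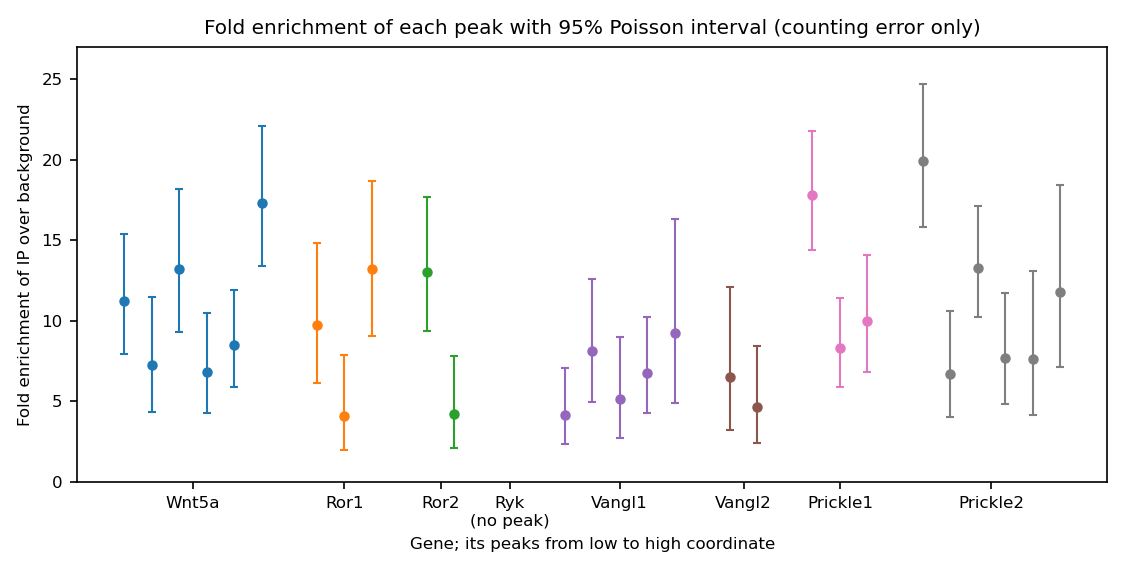
Fold enrichment of IP over background (vertical axis) for each of the 27 peaks, grouped by gene along the horizontal axis and ordered from low to high coordinate, with bars for the 95% exact Poisson interval of the pileup. The strongest peaks of Wnt5a, Prickle1 and Prickle2 reach 17.3 to 19.9, whereas no peak of Vangl1 or Vangl2 exceeds 9.26.

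The Vangl genes, which encode the multi-pass membrane proteins at the core of the polarity complex, had the lowest deposited fold enrichments at their strongest peak among the 7 genes with a peak. Vangl1 (chromosome 3, 102153583 to 102204744) had 5 peaks between 4.17 and 9.26. Of 3556 genes of like span, 7.26% had as many or more. Vangl2 (chromosome 1, 172000960 to 172027318, minus strand) had 2 peaks, a number that 28.8% of 4729 genes of like span had or exceeded.

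The highest value of Vangl1 rested on little signal. The peak at 102196848 to 102197121 had 9.26 (4.88 to 16.3) from 10 fragments over a background of 0.188. Over all peaks the median background was 1.42 and the lowest 0.175. At a background of 0.188 most of the divisor is the added 1. The plain ratio of pileup to background at this Vangl1 peak was 53.1, the highest of the 27 peaks. The widest Vangl1 peak, 886 bp at 102157695 to 102158580, had 8.10 (4.97 to 12.6) from 18 fragments over 1.35. Another, at 102184190 to 102184709, had 6.74 (4.24 to 10.2) from 20. The remaining peaks had 5.11 (2.69 to 9.0) and 4.17 (2.31 to 7.05), and neither passed −log10 q of 5. All 5 intervals overlapped each other, so the order of the Vangl1 peaks is not resolved.

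Both Vangl2 peaks were narrow and weak. The peak at 172004654 to 172004895 had 6.5 (3.22 to 12.1) from 8 fragments over a background of 0.384, and its summit lay 3857 bp from the 3′ end of the span. The peak at 172006263 to 172006462 had 4.64 (2.38 to 8.4) from 9 fragments over 1.15 and did not pass −log10 q of 5. Its width of 200 bp was the smallest in the list, a width shared with other peaks, and 90.1% of all peaks were wider. With peaks of fewer than 10 fragments left out, Vangl2 had none and 6 of the 8 genes kept a peak. The strongest peak of Vangl1 was 1.42 times that of Vangl2, with overlapping intervals.

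The Prickle genes, which encode the cytoplasmic LIM-domain partners of Vangl, carried the highest deposited fold enrichments of the 8 genes. Prickle1 (chromosome 15, 93499111 to 93596266, minus strand) had 3 peaks and Prickle2 (chromosome 6, 92370891 to 92706334, minus strand) had 6. Of 2346 genes of like span, 31.0% had at least as many peaks as Prickle1. Of 621 genes with a span like that of Prickle2, 16.6% had at least as many as Prickle2. In both Prickle genes, the highest peak was wide and near the 3′ end. In Prickle1 it lay at 93499899 to 93501491, 1593 bp wide, with its summit 1517 bp from the 3′ end and a fold enrichment of 17.8 (14.4 to 21.8). In Prickle2 it lay at 92375597 to 92376888, 1292 bp wide, with its summit 5224 bp from the 3′ end and a fold enrichment of 19.9 (15.8 to 24.7). These peaks also had the most fragments of the 27, with 93 in Prickle1 and 80 in Prickle2, and were the most significant, with −log10 q of 83.9 and 78.0. The ratio of Prickle1 to Prickle2 was 0.898, and the intervals overlapped.

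Prickle1 had a second peak beside its strongest, at 93502961 to 93503906, with 8.30 (5.88 to 11.4) from 36 fragments. Its interval lay below that of the strongest peak. The third stood at the other end of the gene, at 93594975 to 93595625, with 9.95 (6.82 to 14.1) from 30 fragments. Its summit lay 773 bp downstream of the start at 93595902 shown above, and the peak began 277 bp past it. From the 5′ end of the span the summit was 1137 bp away. Prickle1 thus had peaks at both ends, as Ror1 had, and none across the 91926 bp between these last summits.

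The other 5 peaks of Prickle2 lay in spans that it shares with other genes. The peak at 92410824 to 92411590 had 13.3 (10.2 to 17.1) from 61 fragments. It and the peaks of 6.70 (4.00 to 10.6) and 7.69 (4.84 to 11.7) also lay in the span of the long non-coding RNA gene Gm38862. The peaks at 92565386 to 92565696, with 11.8 (7.12 to 18.4), and at 92564778 to 92565079, with 7.61 (4.12 to 13.1), also lay in that of the pseudogene Gm5880. The latter pair lay 1853 and 2471 bp downstream of 1 of the 4 annotated Prickle2 starts. Peaks carry no strand, so which gene's RNA gave these 5 peaks was not tested. Only the strongest Prickle2 peak lay in no other span.

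Set side by side, the strongest peak was highest in Prickle2, followed by Prickle1 at 17.8 and Wnt5a at 17.3, then Ror1 at 13.2 and Ror2 at 13.0, then Vangl1 at 9.26 and Vangl2 at 6.5. No neighbours in this order had intervals that separated. The interval of Vangl2 (3.22 to 12.1) lay below those of Wnt5a, Prickle1 and Prickle2. Both the order and this separation depend on the added 1. As the plain ratio of pileup to background, the highest values were 53.1 in Vangl1, 32.0 in Prickle2, 23.4 in Wnt5a, 22.3 in Ror1, 21.8 in Prickle1, 20.8 in Vangl2 and 18.8 in Ror2. Fold enrichments of different genes depend on RNA level through the background and are not levels of methylation.

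Among the 9831 protein-coding genes with a peak, the strongest peak of Prickle2 was above that of 94.0%, Prickle1 above 90.5% and Wnt5a above 89.4%. Ror1 and Ror2 were above 75.3% and 74.5%, Vangl1 above 49.3% and Vangl2 above 23.0%. The median over the 7 genes was 13.2, beside 9.36 over all protein-coding genes with a peak. The highest of several peaks can rise with their number. When each gene was instead summarised by the median of its peaks, the 7 genes had a median of 9.73 and all genes 7.43.

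**Figure D3:**
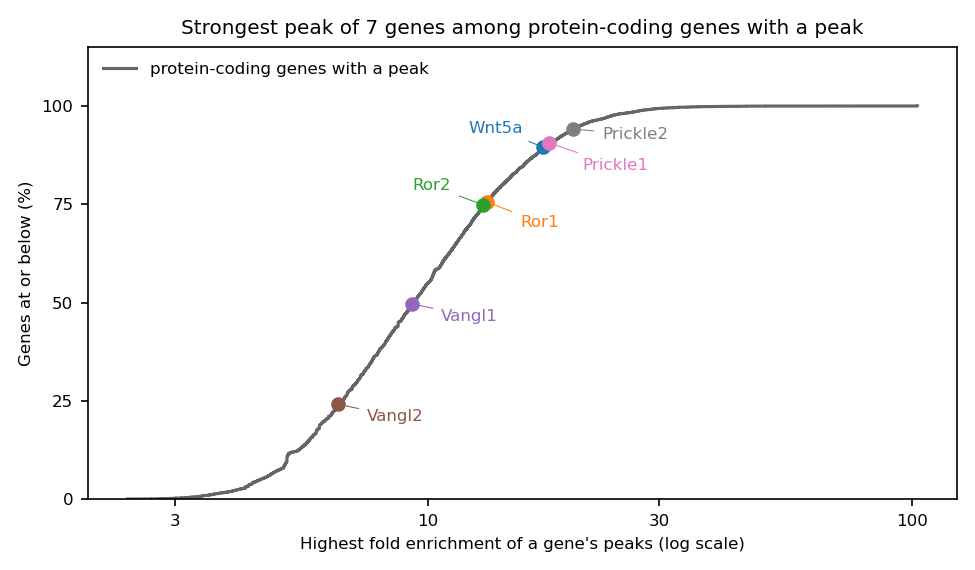
Cumulative percentage of the protein-coding genes that had a peak (vertical axis) against the highest fold enrichment among a gene's peaks (horizontal axis, log scale), with the 7 genes marked. Vangl2 and Vangl1 stand in the lower part and the middle of the curve at 6.5 and 9.26, and Wnt5a, Prickle1 and Prickle2 in its upper part at 17.3 to 19.9.

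Strand was known for 5 of the genes with a peak. In 4 of them, Ror1, Ror2, Prickle1 and Prickle2, the highest peak lay in the last 10% of the span in the direction of transcription. In Vangl2 it lay outside the last 10%, with its summit 3857 bp from the 3′ end of a span of 26359 bp. In bases that was nearer the 3′ end than in Prickle2, at 5224 bp in a span of 335444 bp. A position as a percentage thus depends on the length of the span. Among 7834 protein-coding genes with a peak and a strand, 32.2% (Wilson interval 31.2 to 33.3) had their highest peak in the last 10%. These 7834 genes were not matched to the members by span. Over only 5 members, the interval of the share was wide, at 37.6 to 96.4. A summit within 1000 bp downstream of a start in the promoter table was found in 2 of the 5 (interval 11.8 to 76.9), Ror1 and Prickle1. It was found in 25.5% (24.5 to 26.5) of the 7834 genes. The Prickle1 summit was 1137 bp from the 5′ end of its span. Exons were not used, so these positions are distances on the genome and not parts of the transcript.

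The rest of the pathway carried peaks in 33 of 49 listed genes (67.3%), again beside 44.9% of all protein-coding genes. The 49 genes were not compared with genes of like span, so these shares are not matched for span. The median over the strongest peaks of the 33 genes was 9.29. It was close to the 9.36 of all genes with a peak and below the 13.2 of the 7 genes above. This difference was not tested.

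All 4 listed ligand genes had a peak. Wnt5b, the close relative of Wnt5a, stood highest of the 49 at 27.4 (20.9 to 35.3), at a site that also lies in the span of Fbxl14. Wnt5b and Wnt5a had overlapping intervals. The other ligands, Wnt11, Wnt4 and Wnt7a, had 8.88, 8.67 and 5.11, each from 13 or fewer fragments. Of the secreted and matrix modulators, Sfrp2 and Sfrp1, which encode Wnt-binding antagonists, had 8.79 and 8.19, and Sfrp5 and the glypican gene Gpc4 had no peak.

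Among receptors, Fzd7 had 22.1 (17.7 to 27.3) from 85 fragments in a span of 4809 bp. Fzd2, Fzd6 and Fzd3 had 10.9, 10.6 and 9.29, and the pseudokinase gene Ptk7 had 4.38 (3.04 to 6.13) over a background of 6.54. Mcam, which encodes a cell-surface protein reported to bind Wnt5a, had no peak, which leaves it beside Ryk as a listed receptor gene without one.

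Core polarity genes were uneven. The atypical cadherin genes Celsr1 and Celsr2 had 19.6 (14.4 to 26.1) and 16.9 (12.1 to 23.0), and Celsr3 had no peak. Both intervals overlapped those of Prickle1 at 17.8 and Prickle2 at 19.9. Of the Dishevelled genes, Dvl3 had 8.34 from 10 fragments, at a site that also lies in the span of Gm16618. Dvl1 had 5.64 and Dvl2 had no peak. Ankrd6, which encodes the vertebrate Diego relative, had 8.34. The other Prickle family genes, Prickle3 and Prickle4, had no peak, so 2 of the 4 family members had a peak in this list.

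Of the genes for partners and traffic of Vangl, Dact1 had 14.5 (10.7 to 19.2) and Sec24b, a coat protein gene needed to export Vangl2 from the endoplasmic reticulum, 13.5. Gipc1 and the ubiquitin ligase gene Smurf1 had 7.34 and 5.91. Scrib, Sestd1, Arfrp1 and Smurf2 had no peak. The 5 listed Fat and Dachsous genes, which encode giant cadherins of a parallel polarity system and their kinase, all had peaks. Fjx1 had 21.4 (15.7 to 28.4), Fat1 20.0 (14.8 to 26.6) with 16 peaks, Dchs1 15.6 with 10, Fat4 13.6 with 11 and Dchs2 11.6.

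The cytoskeletal effectors had peaks in 6 of 10 genes. The formin gene Daam1 had 15.8 (11.3 to 21.4) and the kinase gene Rock1 15.0 (10.7 to 20.5). Daam2 had 10.7, Rock2 6.71, the Jun kinase gene Mapk9 6.66 and Rac1 5.78. The GTPase genes Rhoa and Cdc42 and the kinase genes Mapk8 and Mapk10 had no peak. Of the ciliary effectors, Intu had 7.91 and Wdpcp 6.16, and Fuz had none.

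**Figure D4:**
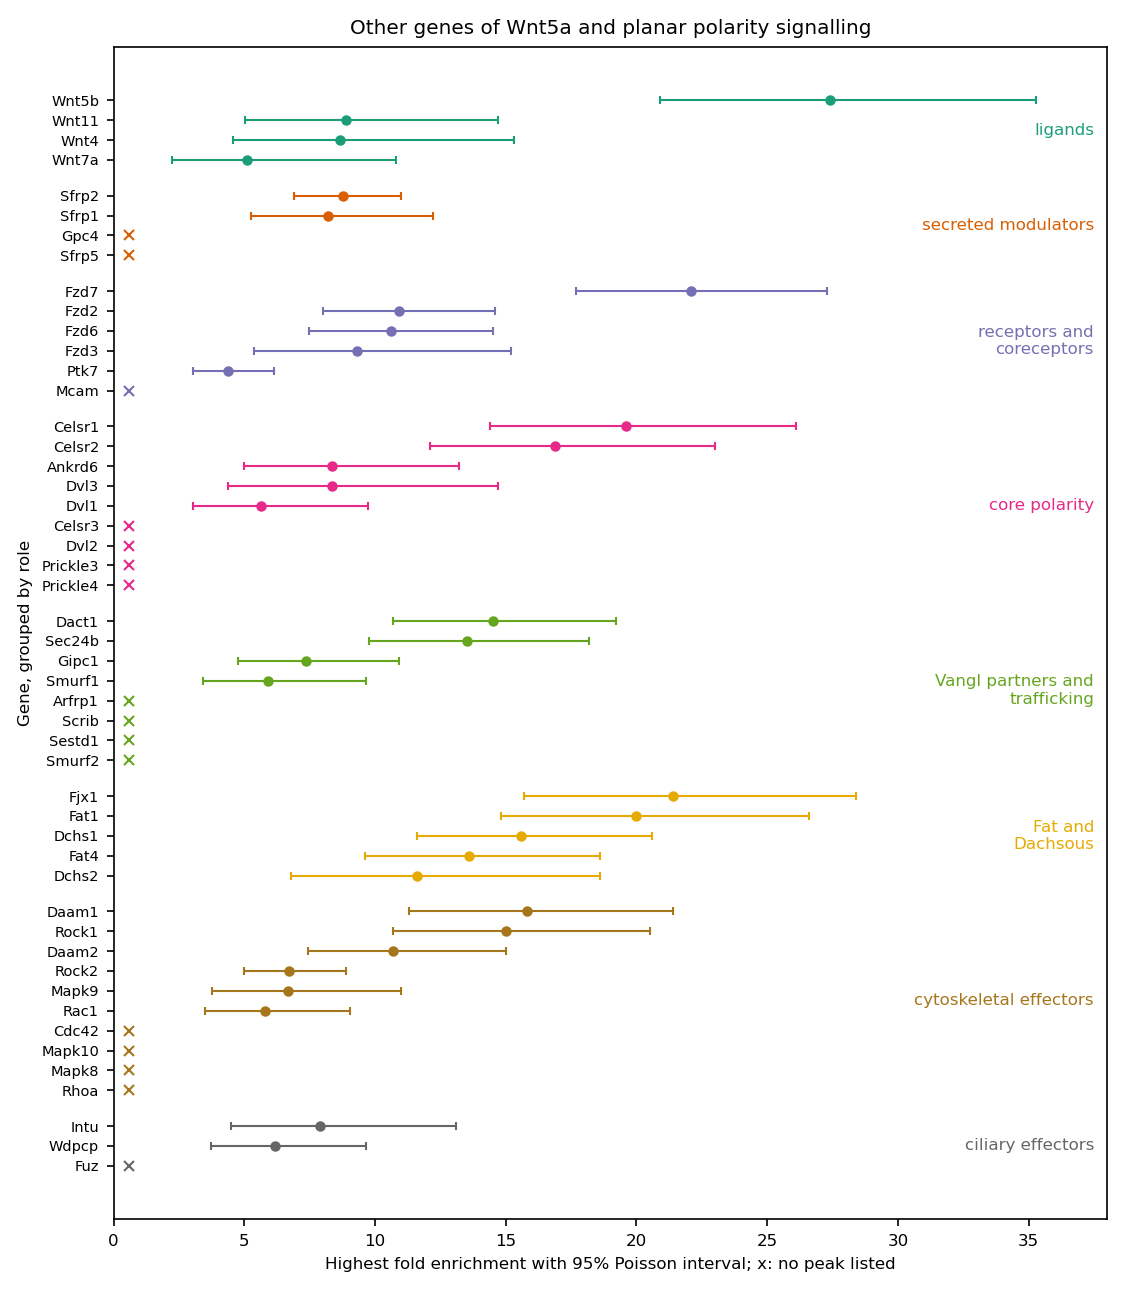
Highest fold enrichment (horizontal axis) with its 95% exact Poisson interval for each of the 49 other pathway genes (vertical axis), grouped and coloured by role, with a cross for genes without a peak. All 5 listed Fat and Dachsous genes have a peak of at least 11.6, while 16 genes in other groups have none.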

How the data were processed

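The members and gene lists were chosen with earlier results of these data known. The submitters' processing notes name the aligner HISAT2 (version 2.2.1), the peak caller MACS3 (version 3.0.0a7) and mm10. The sources used here do not give their options, the control library or whether samples were pooled. The deposited values are the fold enrichment (a ratio), p-value and q-value as −log10, and a score of 10 times −log10 q, by the authors' peak caller.

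Pileup and background were solved from each peak's fold enrichment and Poisson p-value. A whole-number pileup gave the deposited −log10 p, to within 0.05 of its change per added fragment, in 99.97% of peaks and in all 27 of these. The solver and the assignment were tested on simulated data.

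Spans came from a RefSeq table of 49997 genes (GRCm38.p6), without exons. A summit counted for every gene whose span held it. Genes of like span are those within 1.5 times. Sequences were planned around GGAC motifs under the peaks, and proteins of paralogs, but were not analysed here for want of a genome and protein table. Transcript starts from RefSeq's promoter table were shown in their place. All 8 genes are named with every peak, and of the other pathway genes the 10 highest and all without a peak. The values of the remaining pathway genes are given too. Amplified fragments are not independent molecules. Coordinates count from 1. Each count was repeated with fold enrichment of at least 4, with −log10 q of at least 5, any or 50% overlap, summits in exactly 1 span and pileup of at least 10. Fold enrichments were also repeated as the median over peaks and with no pseudocount of 1. The software was scipy 1.17.1, pandas 2.3.3 and numpy 2.4.6 under Python 3.11.15, with matplotlib 3.10.9 for plots.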

Additional observations from a re-analysis of the deposited data

How the results depend on the processing

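Of the 8 genes, 7 had a peak under each alternative run, except with a pileup of at least 10, which left 6. Their peaks numbered 22 to 27. The percentage of all protein-coding genes that had a peak moved from 44.9% to 41.3% with −log10 q of at least 5, 43.9% with fold enrichment of at least 4, 40.9% with summits in exactly 1 span and 39.3% with a pileup of at least 10. With spans extended by 5 kb, chosen after seeing the data, it was 52.3%, and Ryk still had no peak. Without the pseudocount, the median of the strongest peaks was 22.3, beside 18.4 for all protein-coding genes with a peak, and the order of the genes changed. Vangl1, at 53.1, came above Prickle2, at 32.0. Prickle1, at 21.8, fell below Wnt5a, at 23.4, and Ror1, at 22.3. Vangl2, at 20.8, rose above Ror2, at 18.8. The Vangl1 value rested on 10 fragments over a background of 0.188, near the lowest of all peaks at 0.175. No paired analysis was possible because there is 1 sample in each group and a single peak list. Both Vangl2 peaks rest on fewer than 10 fragments, as does 1 peak each of Ror1 and Ror2.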
